A study of Arabidopsis thaliana with 7 samples.

Results

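Genes for making and breaking down starch were examined for binding by CCA1 in Arabidopsis thaliana seedlings. The set held 40 genes with a known place in starch metabolism, out of 37899 nuclear genes in the reference annotation. They were chosen with earlier results of these data already known. A gene counted as bound when the authors' annotation gave it as the gene of the nearest promoter of a peak, or named it as the gene in or beside which the peak lay. Chromatin immunoprecipitation followed by sequencing (ChIP-seq) measured where CCA1 fused to green fluorescent protein (GFP), made under the CCA1 promoter in the WS-2 ecotype, sat on the genome. All plants carried this fusion, were entrained under 12 h of light alternating with 12 h of darkness, and were harvested as 14-day-old whole seedlings at zeitgeber time (ZT) 2, 2 h after dawn or subjective dawn. They came either from continuous light after that entrainment (LL, 3 libraries) or from the light-dark cycles themselves (LD, 2 libraries). A library of ZT14 in continuous light and an input library were not analysed here. The sources used here do not give whether the plants also kept an untagged CCA1, or how many transgenic lines were used. Whole seedlings mix all organs, so the cells in which a site was bound cannot be told apart.

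Leaves store part of the carbon fixed by day as starch in the chloroplast and use it up at night, at a pace that the circadian clock helps to set. In synthesis, plastidial phosphoglucomutase and ADP-glucose pyrophosphorylase make the sugar nucleotide ADP-glucose, starch synthases extend glucan chains, and branching and debranching enzymes shape the granule. In breakdown, dikinases first add phosphate to the granule surface, phosphatases take it off again, and amylases and debranching enzymes shorten the chains, largely to maltose. Disproportionating enzymes release free glucose, which hexokinase can phosphorylate, and phosphorylases release glucose that already carries phosphate. CCA1, a clock transcription factor with a MYB-like domain, is most abundant around dawn.

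The authors deposited 1 list of peaks for each regime, in which the libraries are pooled. The values therefore come without replicate error, and no difference between the regimes could be tested. There were 1433 LL peaks, each 158 bp wide with 17 to 229 tags (mapped reads), and 1607 LD peaks, each 124 bp wide with 31 to 234 tags. A tag carried 2.17 times as many normalised units in LL as in LD. The LD data were deeper by that factor if a common total was used for scaling, which the headers do not say. Scores ran higher in LD in general, with a list median of 48 against 26 in LL, so a score is read only within its own list. Coordinates are on TAIR10, and scores, folds over control and distances to the transcription start site (TSS) are the authors' own.

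CCA1 peaks were found at 15 of the 40 starch genes, and 14 of these had a peak in both regimes. In LL 14 genes (35.0%) had a peak, where 3.82% of all nuclear genes did, and in LD 15 genes (37.5%) had one, where 4.24% did. A peak in both lists was found at 35.0% of the starch genes and at 2.93% of all nuclear genes. No starch gene had a peak in LL alone, and 0.889% of nuclear genes did. The pyrophosphorylase gene APL2 was the single starch gene with a peak in LD alone, a class that held 1.31% of nuclear genes. Of the nuclear genes with a peak in either list, 57.2% had one in both. All 40 starch genes code for proteins, and among the 27432 protein-coding nuclear genes 4.95% had a peak in LL and 5.52% in LD. The genes were chosen with results from these lists already known, so these shares describe the set and carry no test.

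All 4 steps of the pathway held bound genes. Synthesis had 4 of 16 genes with a peak in LL and 5 of 16 in LD. The phosphorylation step, counted here as the dikinases and the glucan phosphatase family, had 3 of 5 genes in each regime. Breakdown had 6 of 17 genes and hexokinase 1 of 2 genes in each. With groups of 2 to 17 genes, the order of these shares is a description of the listed genes.

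**Figure D1:**
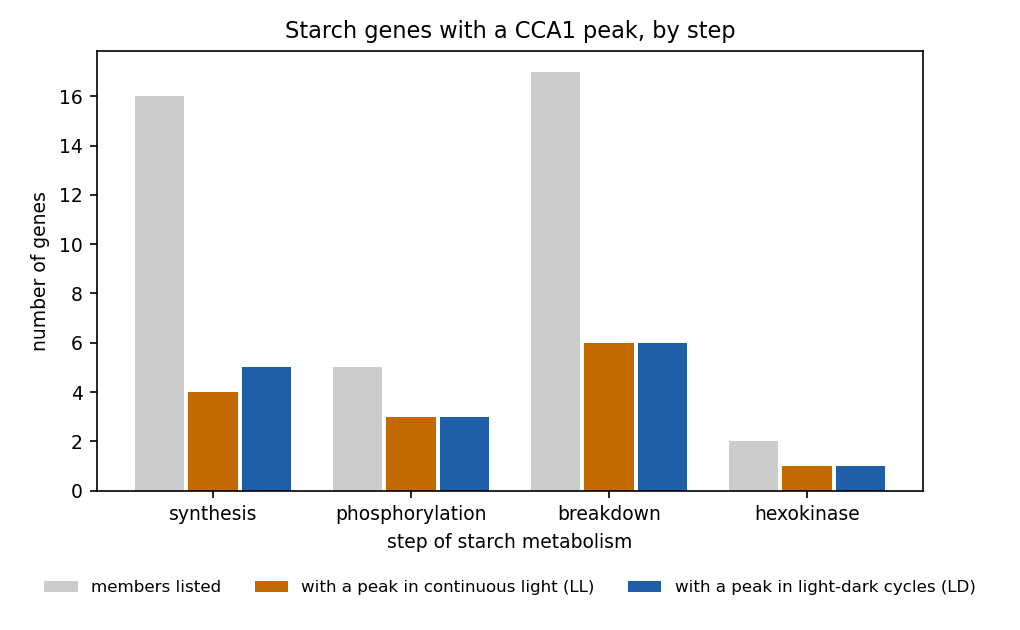
The plot gives, for each step of starch metabolism, the number of genes listed (grey) and the number with a CCA1 peak in continuous light (orange) and in light-dark cycles (blue). Both regimes gave the same count in 3 of the 4 steps, and in synthesis LD had 5 genes against 4 in LL.

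The strongest sites at starch genes lay at HXK2, SBE2.1, SS4 and ISA3, and these genes held the 4 highest places of the set in both lists. HXK2 (AT2G19860) encodes a hexokinase, which phosphorylates glucose. Its LL peak (chromosome 2, 8570160 to 8570318) lay 511 bp upstream of the TSS and held 142 tags (exact 95% Poisson interval 120 to 167), 65.96-fold over control. With a score of 122 it stood at rank 12 of the LL list. In LD the gene carried a pair of peaks of nearly equal size. The one at 8570169 to 8570293, 519 bp upstream, held 129 tags (108 to 153) and scored 132, and its centre was 8 bp from that of the LL peak. The other, at 8570440 to 8570564 and 248 bp upstream, held 130 tags (109 to 154), scored 134 and overlapped no LL peak. Tags outside listed peaks were not available, so the LL signal at that place is not known. Whether the calling could list LL peaks this close together was not checked. The LD peaks were 271 bp apart and stood at ranks 43 and 38 of their list. HXK1, which encodes the hexokinase best known as a glucose sensor, had no peak in either list.

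Among the synthesis genes, SBE2.1 (AT2G36390), which encodes a starch branching enzyme, carried the highest peaks and had peaks annotated to both of its ends. The promoter peak held 84 tags (67.0 to 104) in LL, 216 bp upstream of the TSS (chromosome 2, 15263942 to 15264100), with a score of 74. In LD it held 117 tags (96.8 to 140), 206 bp upstream (15263969 to 15264093), with a score of 121. A further peak was annotated to the transcription termination site (TTS) of the gene, with centres 7022 bp apart in LL and 6971 bp in LD. Its distance from the TTS was not computed. This 3' peak held 58 tags (44.0 to 75.0; 15270964 to 15271122; score 56) in LL and 122 tags (101 to 146; 15270940 to 15271064; score 123) in LD. The nearest promoter to it was that of GRF3 (AT2G36400), which encodes a growth-regulating transcription factor, with the peak centre 1780 bp and 1821 bp downstream of the GRF3 start. The 3' peak therefore counts for SBE2.1 only through the annotation column, while the promoter peak counts through both columns. SBE2.2, which encodes the other listed branching enzyme, had no peak.

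SS4 (AT4G18240) encodes the starch synthase known for starting new granules. Its peak sat on the TSS in both regimes, 8 bp upstream in LL (chromosome 4, 10082021 to 10082179) and 14 bp downstream in LD (10082060 to 10082184). It held 64 tags (49.3 to 81.7) and scored 53 in LL, and held 101 tags (82.3 to 123) and scored 105 in LD. None of the other 4 listed synthase genes (SS1, SS2, SS3 and GBSS1, the last for the granule-bound enzyme that makes amylose) had a peak.

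PGM1 (AT5G51820), the gene of plastidial phosphoglucomutase, carried a shared site 438 bp upstream in LL (chromosome 5, 21068416 to 21068574) and 417 bp upstream in LD (21068412 to 21068536). This site held 37 tags (26.1 to 51.0) in LL and 62 tags (47.5 to 79.5) in LD. A further LD peak with 34 tags (23.5 to 47.5) lay 20 bp downstream of the TSS, 458 bp from the LL peak. Its score of 34 was higher than that of only 5.35% of LD peaks.

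ISA1 (AT2G39930) encodes an isoamylase that trims misplaced branches during synthesis. Its LL peak (chromosome 2, 16665364 to 16665522; 580 bp upstream) was among the weakest of its list, with 18 tags (10.7 to 28.4), a score of 17 and 8.0-fold over control. Its LD peak (16665480 to 16665604; 481 bp upstream) held 61 tags (46.7 to 78.4) and scored 62, above 70.9% of the LD list. The peaks overlapped by 43 bp, with centres 99 bp apart, the widest gap among the overlapping pairs at starch genes. The annotation column placed the LL peak in the promoter of the neighbouring AT2G39920 and the LD peak in that of ISA1. ISA2, whose product works together with that of ISA1, had no peak.

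ADP-glucose pyrophosphorylase is built of small and large subunits, and 1 of its 5 listed genes had a peak. This was APL2 (AT1G27680), which encodes a large subunit, with an LD peak 77 bp upstream of the TSS (chromosome 1, 9631146 to 9631270) of 45 tags (32.8 to 60.2) and score 47. The nearest LL peak lay 20109 bp away. In the score class of this peak, the third of 4, 217 of 402 LD peaks (54.0%) overlapped an LL peak. Whether score accounts for the missing LL peak at APL2 was not tested. APS1, APL1, APL3 and APL4 had no peak, nor did AT5G39790, which was counted with synthesis.

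Both dikinase genes were bound in both regimes, within 100 bp of the TSS. GWD1 (AT1G10760, also called SEX1) encodes the glucan water dikinase that phosphorylates the granule. Its peak held 34 tags (23.5 to 47.5) in LL, 4 bp downstream of the TSS (chromosome 1, 3590845 to 3591003; score 31). In LD it held 61 tags (46.7 to 78.4), 29 bp downstream (3590837 to 3590961; score 63). PWD (AT5G26570) encodes the phosphoglucan water dikinase, which acts on glucan that already carries phosphate. Its peaks were weaker, with 24 tags (15.4 to 35.7; 80 bp upstream; score 24) in LL and 40 tags (28.6 to 54.5; 64 bp upstream; score 43) in LD, and both scores were below the median of their list.

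Of the 3 genes of the glucan phosphatase family, LSF1 (AT3G01510) had a peak. Its product resembles the phosphatase SEX4 and is needed for normal starch breakdown. The LL peak (chromosome 3, 201727 to 201885; 64 bp upstream) held 29 tags (19.4 to 41.6), and the LD peak (201749 to 201873; 69 bp upstream) held 67 tags (51.9 to 85.1) at 31.5-fold over control. The genes of the active phosphatases SEX4 and LSF2 had no peak.

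In the breakdown step the highest peaks belonged to ISA3 (AT4G09020), which encodes the isoamylase that removes branches during degradation. The site lay 176 bp upstream in LL (chromosome 4, 5783819 to 5783977) and 150 bp upstream in LD (5783862 to 5783986). It held 48 tags (35.4 to 63.6) with a score of 45 in LL, above 83.6% of the list, and 89 tags (71.5 to 110) with a score of 89 in LD, above 87.9%. The other listed debranching gene of this step, LDA, which encodes limit dextrinase, had no peak.

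BAM4 was the single bound gene of the 7 listed for beta-amylases, enzymes that release maltose from chain ends. BAM4 (AT5G55700) encodes a chloroplast family member without catalytic activity that is still needed for normal breakdown. Its site lay 569 bp upstream in LL (chromosome 5, 22551099 to 22551257) and 589 bp upstream in LD (22551096 to 22551220), the farthest from the TSS in LD, and the farthest but ISA1 in LL, among peaks whose nearest promoter was that of the starch gene. It held 20 tags (12.2 to 30.9) and scored 20 in LL, above 16.7% of the list. In LD it held 80 tags (63.4 to 99.6) and scored 80, above 84.4% of the list. BAM1 and BAM3, the genes of the main active chloroplast enzymes, had no peak, nor did BAM2, BAM5, BAM6 and BAM9. Among the 3 alpha-amylase genes, AMY3 (AT1G69830), whose product is the chloroplast enzyme, had weak peaks at nearly the same place. These held 18 tags (10.7 to 28.4; 157 bp upstream; score 19) in LL and 32 tags (21.9 to 45.2; 159 bp upstream; score 32) in LD. The lowest peaks of the lists held 17 and 31 tags, so AMY3 was close to the calling limit in both. AMY1 and AMY2 had no peak.

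Both glucan phosphorylase genes had a peak in each list. PHS1 (AT3G29320) encodes the chloroplast enzyme and was bound at a shared site, with 21 tags (13.0 to 32.1; 115 bp upstream) in LL and 58 tags (44.0 to 75.0; 102 bp upstream) in LD. PHS2 (AT3G46970) encodes the cytosolic enzyme, and its peaks lay at different places. The LL peak (chromosome 3, 17306451 to 17306609) was 84 bp upstream of the TSS with 19 tags (11.4 to 29.7). The LD peak (17306246 to 17306370) was 138 bp downstream with 51 tags (38.0 to 67.1), and their centres were 222 bp apart. The annotation column assigned the LD peak to the TTS of the neighbouring phosphate transporter gene PHT4;3 (AT3G46980).

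DPE1 (AT5G64860) encodes the chloroplast disproportionating enzyme, which recycles the short glucans that beta-amylases leave behind. Its shared site held 33 tags (22.7 to 46.3; 447 bp upstream; score 34) in LL and 58 tags (44.0 to 75.0; 441 bp upstream; score 59) in LD. A further LL peak with 22 tags (13.8 to 33.3) lay 57 bp upstream and overlapped no LD peak, the nearest centre being 384 bp away. Neither DPE2, which encodes the cytosolic enzyme that acts on maltose, nor MEX1, which encodes the maltose exporter of the chloroplast, had a peak.

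**Figure D2:**
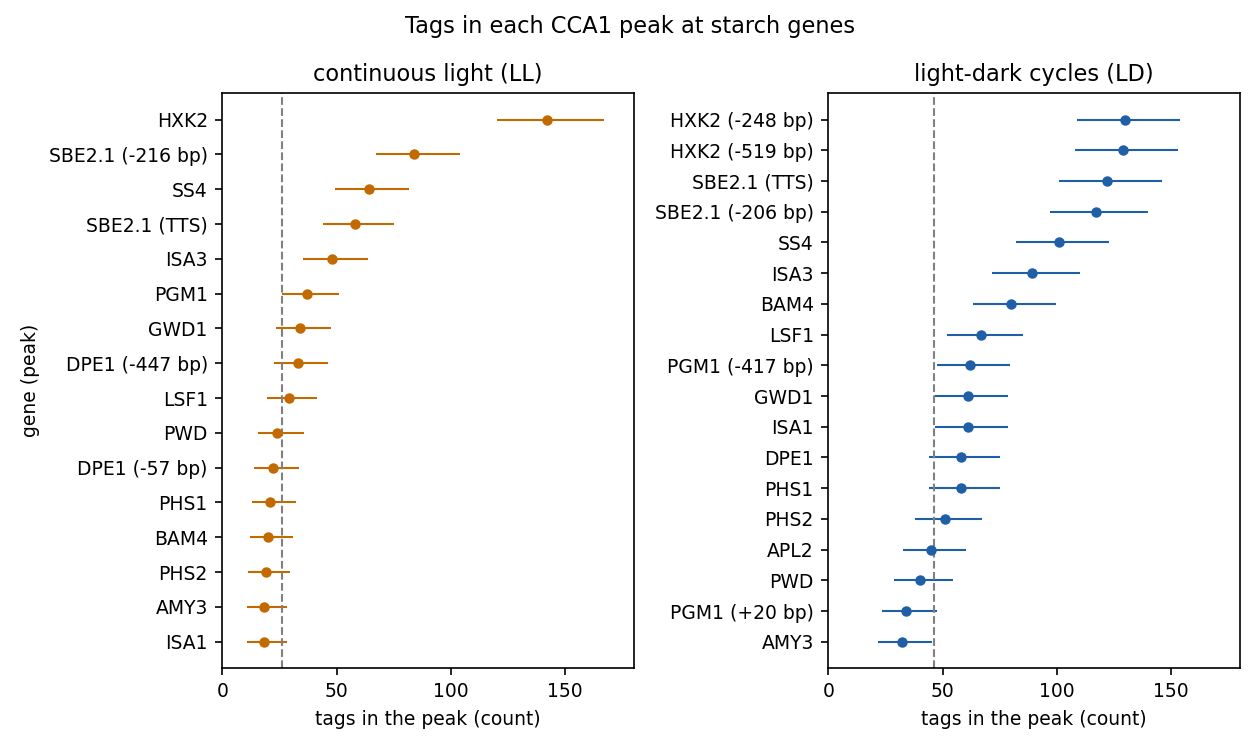
The plot shows the number of tags in each CCA1 peak at a starch gene in continuous light (left, 16 peaks) and light-dark cycles (right, 18 peaks), with exact 95% Poisson intervals as bars and the median of all peaks of the list as a dashed line (26 and 46 tags). HXK2 lies highest in both panels, and AMY3 lies at the low end of both.

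The 16 LL and 18 LD peaks at starch genes ranged from close to the calling limit to near the top of their lists. Their median score was 29 in LL, where the list median was 26, and 62.5 in LD, where it was 48. In LL 9 of the 16 and in LD 14 of the 18 were above the list median. Folds over control ran from 8.0 to 65.96 in LL (median 19.1, list median 13.6) and from 11.06 to 36.67 in LD (median 21.8, list median 14.8). Control tags were low at every one of these peaks, from 0.8 to 2.9 in LL and from 1.9 to 4.0 in LD, where the list medians were 2.1 and 3.2. The GC content of the 500 bp windows around them had a median of 33.0% in LL and 32.9% in LD, against 32.7% and 33.3% over the whole lists.

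Binding at starch genes sat close to the TSS. The promoter-TSS category held 15 of the 16 LL peaks (93.8%) and 16 of the 18 LD peaks (88.9%), where it held 59.4% and 59.0% of all peaks. The exceptions were the 3' peak of SBE2.1 in both lists and the LD peak of PHS2. For the LL peak of ISA1, the category refers to the promoter of the neighbouring AT2G39920. Among peaks whose nearest promoter was that of the starch gene, the median distance of the centre from the TSS was 157 bp for the 15 LL peaks and 150 bp for the 17 LD peaks, and the farthest lay 580 bp and 589 bp away. Over all peaks the medians were 566 bp (LL) and 538 bp (LD). Within 100 bp of the TSS lay 6 of these 15 LL peaks and 6 of these 17 LD peaks, where 18.8% and 21.8% of all peaks did. Of the same peaks, 14 of 15 in LL and 13 of 17 in LD were centred upstream.

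**Figure D3:**
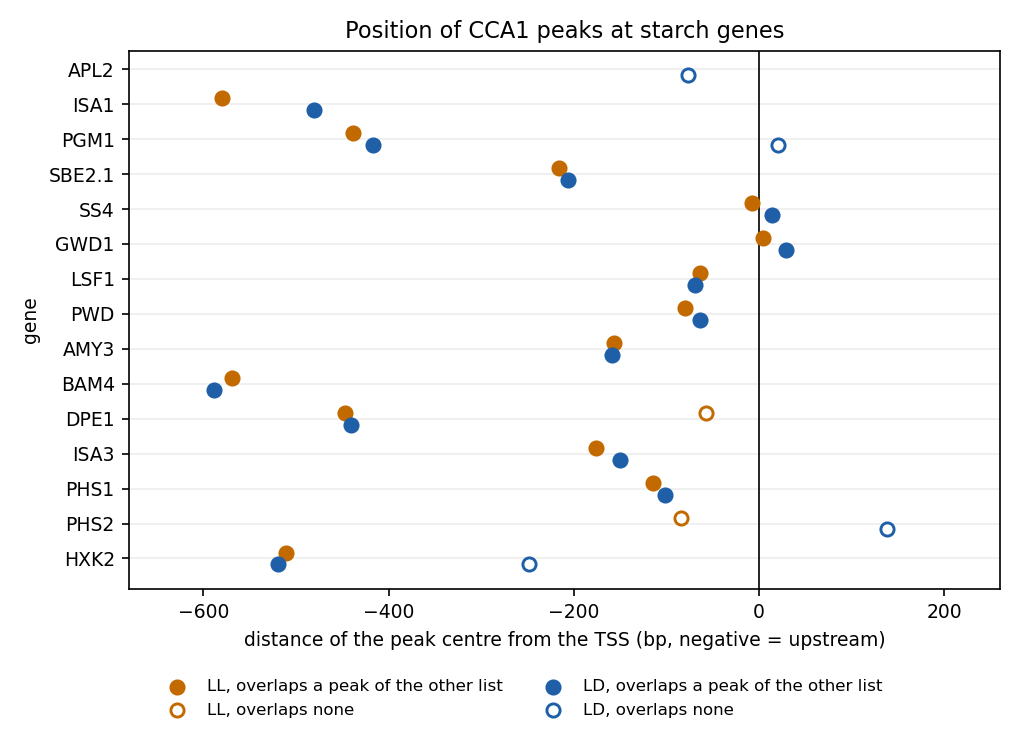
The plot shows the distance of each peak centre from the TSS of the starch gene in bp, with negative values upstream, in LL (orange) and LD (blue). Filled points overlap a peak of the other list and open points do not, and the 3' peaks of SBE2.1 are left out. All points lie between 589 bp upstream and 138 bp downstream, and filled points of a gene lie close together.

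The same sites were mostly marked in both regimes, as was also the case over the whole lists. An overlap of 1 bp or more with an LD peak was found for 14 of the 16 LL peaks at starch genes, where 74.6% of all LL peaks did. In LD 14 of the 18 overlapped an LL peak, where 66.5% of all LD peaks did. Over all peaks, overlap differed by score class. It was 98.1% in the highest and 43.3% in the lowest class of LL, and 96.3% and 36.7% in those of LD. Whether score accounts for the counts at starch genes was not tested. The centres of the 14 overlapping pairs at starch genes, at 13 genes, were 2 to 99 bp apart with a median of 18 bp. The corresponding median over all shared LL peaks was 15 bp. The starch gene peaks without a partner were, in LL, the site of DPE1 near its TSS and the PHS2 peak. In LD they were the HXK2 peak nearer to the TSS, the PGM1 peak at the TSS, and the peaks of PHS2 and APL2. All of these but APL2 lay within 458 bp of a peak of the other list. Tags outside listed peaks were not available, so a missing partner does not show that signal was absent.

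At most shared sites, the counting intervals could not tell the balance of tags between the regimes from the general one. Many of these intervals were wide, such as 22.9% to 50.8% at AMY3. Over all 1069 overlapping pairs, LL contributed a median of 36.5% of the LL plus LD tags, with 5% of pairs below 25.6% and 5% above 49.4%. The LL peaks were 158 bp wide and the LD peaks 124 bp, with at least 17 and 31 tags. A share is therefore read only against those of other pairs. The median over the 14 pairs at starch genes was 35.9%, with 5 pairs above and 9 below the general median. The exact 95% binomial interval held the general median at 11 of the 14 pairs, as it did at 82.5% of all pairs. BAM4 had the lowest LL share of the set, 20.0% (12.7 to 29.2), and 0.0935% of all shared pairs had a lower one. ISA1 followed with 22.8% (14.1 to 33.6), which rests on peaks that overlap only in part. HXK2 had the highest LL share, 52.4% (46.3 to 58.5), above 97.8% of all pairs. That share counts only the overlapping LD peak of 129 tags. It leaves out the other LD peak of the gene, 271 bp away with 130 tags. Adding that peak alone would lower the LL share, but the LL tags at its place are not known. When the pairs were split into 4 classes by their tags, the median LL share of the highest class, which holds HXK2, was 39.6%, and 94.4% of its 268 pairs were below HXK2. In the second class, which holds BAM4, the median was 35.3%, and 0.375% of its 267 pairs were lower than BAM4. These intervals cover the counting of tags only and compare the pooled libraries, not the light regimes.

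**Figure D4:**
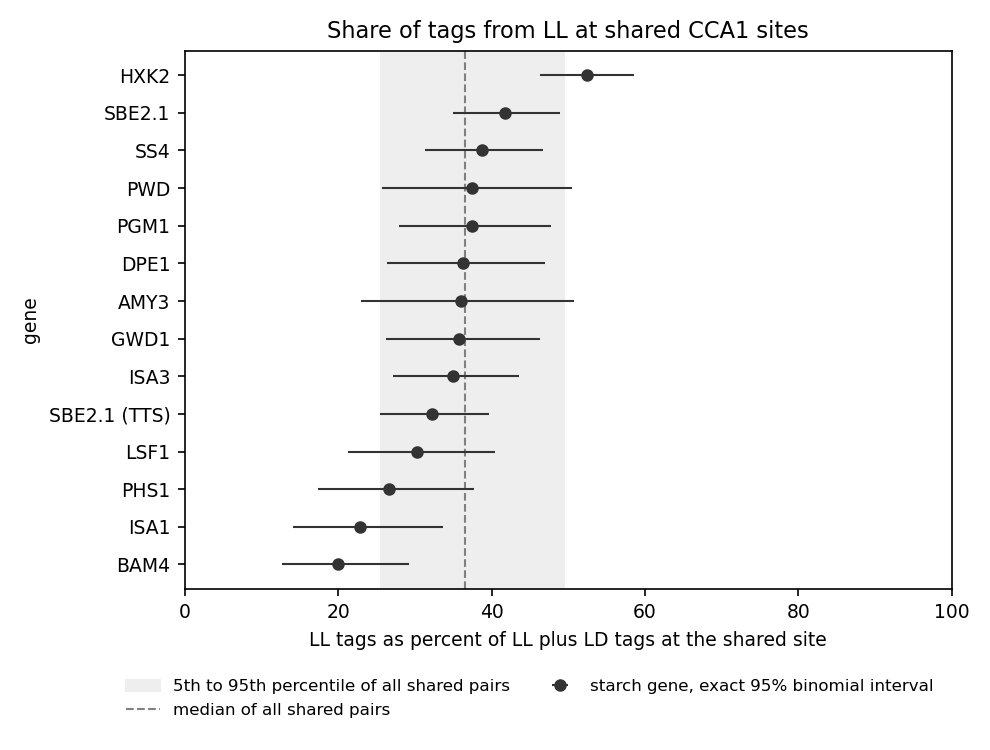
The plot shows, for each of the 14 sites at starch genes found in both lists, the LL tags as a percent of LL plus LD tags, with exact 95% binomial intervals as bars. The dashed line is the median of all 1069 shared pairs (36.5%) and the grey band their 5th to 95th percentile (25.6% to 49.4%). Outside the band lie BAM4 and ISA1 on the low side and HXK2 on the high side. The HXK2 share leaves out the other LD peak of that gene, which overlaps no LL peak. Peaks were 158 bp wide in LL and 124 bp in LD.

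Of 16 further genes of the pathway that were not in the set, 1 had an LL peak (6.25%, where 3.82% of all nuclear genes had one) and 0 had an LD peak (where 4.24% did). With 16 genes, these counts are near the general share. These genes too were chosen with earlier results of these data known, so the counts carry no test. The bound gene was GPT2 (AT1G61800), which encodes a transporter that can bring glucose 6-phosphate into plastids. Its LL peak (chromosome 1, 22824239 to 22824397; 122 bp upstream) was near the calling limit with 18 tags (10.7 to 28.4), and the nearest LD peak lay 55885 bp away. No peak was assigned to PGI1, BE1 (AT3G20440), GPT1, HXK3, HKL1, APS2, BAM7, BAM8, the plastidic glucose transporter gene PGLCT, the gene of plastidial fructose bisphosphatase (AT3G54050), AT1G27070, AT5G03420, AT1G42430, AT3G55760 or AT5G65685. A gene without a peak had no listed peak assigned to it by either column, and a peak near it may have been assigned to a neighbouring gene. Listed peaks held at least 17 tags in LL and 31 in LD, and weaker binding was not detectable.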

How the data were processed

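The LL and LD peak lists of ZT2 were analysed, with groups taken from the labels. The submitters' processing notes name HOMER 4.7, Bowtie2 2.2.1, Trimmomatic 0.33 and CASAVA 1.8, with the TAIR10 build. Per the file headers, each deposited list holds the top peaks after reproducibility filtering (irreproducible discovery rate, IDR) of combined libraries, annotated with HOMER's annotatePeaks.pl. The sources used here do not give the IDR threshold or the control library. Per the file headers, the authors gave each peak a score, a count of tags, a fold ratio over control, signal values (normalised tags and scaled control tags), the distance to the TSS and, for a 500 bp window, the GC fraction.

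Exact 95% Poisson and binomial (Clopper-Pearson) intervals were computed with scipy 1.17.1. They cover counting error alone. Whether duplicate reads were removed is not stated in the sources, and tags that are PCR copies would not be independent molecules. Gene assignment and overlap were tested on simulated peaks. No statistical test was made. The genes, steps and further pathway genes were chosen with earlier results of these data known, and the enzyme families and tag shares were set up after the values were seen. Every gene of the set with a peak was named with its values, the others by name. All 40 genes of the set and the 16 further genes matched, by locus tag, the gene table of RefSeq assembly TAIR10.1, used for names and for the count of nuclear genes. Of 1983 identifiers with a peak, 1945 were in it. No DNA sequence was used here, so the planned motif search was not run. Alternatives were each annotation column alone, the upper 50% of each list, equal list lengths, a TSS window (1000 bp on the upstream and 500 bp on the downstream side), at least 8-fold over control, an overlap of 50% of both peaks, and centres within 500 bp.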

Additional observations from a re-analysis of the deposited data

How the results depend on the processing

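Of 86 recomputed counts, 77 stayed within 1.5 times the reported count. The score limit moved the most: in the upper 50% of each list by score, 8 genes had an LL peak (without AMY3, BAM4, ISA1, PHS1, PHS2 and PWD), 8 had one in both lists and 4 in LD alone (BAM4, ISA1, PHS1 and PHS2, while APL2 lost its LD peak, as did AMY3 and PWD), 2 breakdown genes had an LL peak, and 9 peaks of LL and 9 of LD overlapped a peak of the other list. With the annotation column alone, 1 gene had a peak in LL alone (PHS2) and 2 in LD alone (ISA1 and APL2). With lists cut to equal length, 1 gene had one in LL alone (AMY3, whose LD peak dropped out). In the upper 50% of each list, 1.94% of nuclear genes had an LL peak and 2.18% an LD peak. These shares were 2.84% and 3.15% with the annotation column alone, and 3.82% and 3.79% with equal list lengths. The matching shares for both lists, for LL or LD alone and for overlap were not computed. Those counts therefore cannot be set beside all genes or peaks. No paired analysis was possible because each list pools its libraries, and for the same reason no replicate could be left out. The weak sites rest on few tags: peaks of 18 to 24 tags in LL carry intervals from 10.7 to 35.7 tags.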
